A study of Mus musculus with 6 samples.

Results

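A set of 10 genes of bone morphogenetic protein (BMP) signalling and its feedback were followed across 6 mouse lung metastases measured on Affymetrix arrays. They are the Id genes Id1, Id2, Id3 and Id4, the ligand genes Bmp4 and Bmp7, the receptor genes Bmpr1a and Bmpr2, and the inhibitory Smad genes Smad6 and Smad7. The 10 genes are among 12393 genes with a probe set of their own, and the set was chosen by name with earlier results of these arrays in view, the KO and Het signals included, so their values are a description. The genes were found as the 20 probe sets annotated with a single member symbol, out of 22626 that are not controls. For each gene the probe set with the highest mean over the 6 arrays is the main one, selected on that mean alone. The main probe sets of 8 genes passed a filter that left out the dimmest 40% of probe sets, and those of Bmp7 and Id4 did not.

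All 6 metastases were taken at endpoint from FVB mice whose tumours were driven by MMTV-Myc, a transgene in which the mammary tumour virus promoter expresses the Myc oncogene chiefly in mammary epithelium. The 3 metastases called KO here were labelled Myc E2F2 KO, and the 3 called Het were labelled Myc E2F3 Het, the second being heterozygous for E2F3. E2F2 and E2F3 are cell cycle transcription factors, and metastases with both genes intact were not analysed here; no ages are given. The titles of the 3 Het arrays carry the same number, with endings LM2, LM1 and LM3 for Het replicates 1, 2 and 3, whereas each KO array has a number of its own. The labels do not say what the number stands for, so the Het arrays may come from 1 mouse. The difference between the groups then cannot be told apart from a difference between mice.

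BMP ligands bind pairs of type I and type II receptor kinases, which phosphorylate receptor Smads that enter the nucleus with Smad4 and switch on target genes. The Id genes are classic direct targets, and their products bind E proteins and keep them from binding DNA. Smad6 and Smad7 are also induced by the pathway and damp it, so both Id and inhibitory Smad transcripts are often read as a record of BMP activity. Id1 and Id3 are known in endothelium and in metastatic breast cancer cells, and Id2 in mammary epithelium.

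Of the 10 genes, 7 had an entry in the RefSeq promoter table of build GRCm38.p6: Bmp4, Bmpr1a, Bmpr2, Id2, Id3, Id4 and Smad6. Each window of 300 bases, from 250 before to 50 after the annotated start, was searched on both strands for the Smad palindrome GTCTAGAC, the GC-rich Smad motif GGCGCC and the Myc E-box CACGTG, none of which contains another; the motifs were settled on after the windows had been looked at. The palindrome occurred in 1 window, that of Smad6, at bases 247 to 254, so across the start; 0.213% of all 32851 windows hold it. GGCGCC occurred in 4 windows, those of Id2, Id4, Bmpr1a and Bmpr2, against 11.9% of all windows. The 7 windows had GC contents of 59.3 to 79.3%, and the share over all windows was not matched for GC content. CACGTG occurred in the Bmp4 window, against 7.15% of all windows. Below are the first 270 bases of 4 windows, with those motifs in capitals. Bmp4, Smad6 and Id3 are shown because their signals ran in the same or nearly the same order over the arrays, and Id2 because its signal did not. A match is a stretch of letters, and no binding was measured.
Id3, chr4:136143572-136143841 (+ strand): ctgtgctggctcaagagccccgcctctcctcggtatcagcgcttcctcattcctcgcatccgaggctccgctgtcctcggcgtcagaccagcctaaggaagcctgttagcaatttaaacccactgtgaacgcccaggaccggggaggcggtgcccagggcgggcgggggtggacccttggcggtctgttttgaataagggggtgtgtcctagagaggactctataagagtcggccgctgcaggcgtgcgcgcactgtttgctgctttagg
Bmp4, chr14:46390650-46390919 (- strand): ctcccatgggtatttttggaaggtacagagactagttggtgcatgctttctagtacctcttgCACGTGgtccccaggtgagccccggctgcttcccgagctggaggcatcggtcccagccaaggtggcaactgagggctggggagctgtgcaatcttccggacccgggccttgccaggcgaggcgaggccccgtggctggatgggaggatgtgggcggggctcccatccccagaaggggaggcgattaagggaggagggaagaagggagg
Smad6, chr9:64022040-64022309 (- strand): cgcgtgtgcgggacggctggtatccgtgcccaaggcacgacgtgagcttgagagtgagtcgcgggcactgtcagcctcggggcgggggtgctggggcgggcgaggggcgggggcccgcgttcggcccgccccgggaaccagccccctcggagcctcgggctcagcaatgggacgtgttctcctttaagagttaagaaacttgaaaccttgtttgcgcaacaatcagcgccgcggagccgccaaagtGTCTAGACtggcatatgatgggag
Id2, chr12:25096073-25096342 (- strand): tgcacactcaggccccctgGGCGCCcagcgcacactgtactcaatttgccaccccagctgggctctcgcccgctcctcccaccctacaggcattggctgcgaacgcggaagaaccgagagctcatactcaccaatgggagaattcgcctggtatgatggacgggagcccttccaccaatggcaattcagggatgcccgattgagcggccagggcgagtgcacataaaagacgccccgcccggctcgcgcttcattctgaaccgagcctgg
The Id3 window held none of these 3 motifs, and those of Bmp4, Smad6 and Id2 held 1 each.

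Before the genes, the arrays differed in ways that bear on them. Lung alveolar markers, 8 genes that include the surfactant genes Sftpa1, Sftpb, Sftpc and Sftpd, were highest in KO replicate 1 for 7 of 8 genes. Relative to the mean of the 6 arrays their mean log2 level was 1.53, 0.51 and -1.19 in KO replicates 1, 2 and 3 and 0.28, -0.69 and -0.45 in Het replicates 1, 2 and 3. The summed signal of the 8 ranged from 11381 to 59902 in KO and from 18541 to 28788 in Het arrays. All 9 endothelial markers were highest in KO replicate 1, and their summed signal ranged from 1403 to 3755 in KO and from 1609 to 2788 in Het arrays. The summed signal of 8 fibroblast and smooth muscle markers ranged from 6365 to 10538 in KO and from 5674 to 6003 in Het arrays. Of these, 4 genes (Col1a1, Col1a2, Col3a1 and Dcn) were higher in every KO than in every Het array, and the others overlapped. Pdgfra and Pdgfrb were lowest in KO replicate 3. The mean log2 level of the list was 0.65, 0.29 and -0.27 in KO replicates 1, 2 and 3. In Het replicates 1, 2 and 3 it was -0.15, -0.25 and -0.27. Macrophage markers, 6 genes, ranged from 8162 to 15723 in KO and from 12787 to 16105 in Het arrays. The 7 luminal mammary markers passed the filter, with summed signals of 41322 to 44462 in KO and 42258 to 49055 in Het arrays and a mean log2 difference, KO minus Het, of -0.26. Gata3 was lower in every KO array (343.8 to 417.5) than in every Het array (678.9 to 1044.8). The other luminal markers overlapped between the groups. Elf5 read 3154.5, 5390.1 and 7345.8 in KO replicates 1, 2 and 3 against 7318.0 to 8890.1 in Het arrays. Krt18 was highest in KO replicate 1, at 15157.8. Het replicate 1 had a 3' to 5' signal ratio of 11.84 for the transferrin receptor control, against 3.25 to 5.15 on the other arrays, and 2.37 for actin, against 1.48 to 1.73. In bulk tissue, fewer cells of a type and less RNA per cell cannot be told apart.

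Id1, which encodes a dominant negative helix-loop-helix protein, was higher in every KO metastasis than in any Het metastasis. Its signal was 884.4, 403.3 and 343.7 in KO replicates 1, 2 and 3 and 280.2, 186.4 and 219.1 in Het replicates 1, 2 and 3. The groups did not overlap, and KO replicate 1 stood well above the others. Mean signals were 544 ± 296 for KO against 229 ± 47.6 for Het (SD over 3 arrays each). The log2 difference, KO minus Het of log2(signal + 16), was 1.09 (SE 0.55, a 2.13-fold difference; limma adjusted p = 0.9999). It was 0.69 without KO replicate 1. In KO replicate 3 the alveolar and endothelial marker sums were the lowest of all arrays. Id1 was there the lowest of the 3 KO arrays and above all 3 Het arrays. In that array the fibroblast and smooth muscle sum was 6365, against at most 6003 in Het arrays. The mean log2 level of those markers was not above the Het arrays, at -0.27 against -0.15 to -0.27. The part of any of these cell types in the Id1 difference was not tested.

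Id3, a close relative of Id1, had signals of 540.2, 365.0 and 141.8 in KO replicates 1, 2 and 3 and of 205.5, 79.8 and 141.3 in Het replicates 1, 2 and 3. KO replicates 1 and 2 lay above all Het arrays, whereas KO replicate 3 lay among them, below Het replicate 1. The log2 difference was 1.11 (SE 0.70; limma adjusted p = 0.9999), as large as that of Id1 but with overlapping groups. Leaving out KO replicate 1 gave 0.71, and leaving out KO replicate 3 gave 1.62. The 3 Het arrays spanned 2.58-fold, the widest Het span among the main probe sets of the 8 genes that passed the filter.

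Id2, the family member best known in luminal differentiation of the breast, was bright on all arrays and showed no common direction. The main probe set read 4447.3, 5373.9 and 2992.3 in KO replicates 1, 2 and 3 and 4521.9, 3347.2 and 4796.3 in Het replicates 1, 2 and 3. The highest and the lowest values were both KO, and the log2 difference was -0.0071 (SE 0.34; limma adjusted p = 0.9999). A second probe set read 1861.3, 2154.0 and 1398.2 in KO and 848.7, 2487.2 and 1497.5 in Het replicates 1, 2 and 3, with a log2 difference of 0.27 (SE 0.30). On that probe set the lowest value came from Het replicate 1, the array with the high 3' to 5' ratios, which read 4521.9 on the main one. Whether the array's ratios had a part in this was not tested. The dimmest probe set, of mean 142.8, was at 0.46 (SE 0.58). All 3 overlapped between the groups.

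Id4 was dim on its 3 probe sets, with means of 80.1, 76.9 and 56.0 over the 6 arrays, below the lowest mean that passed the filter, 82.6. The main probe set read 73.5 to 92.9 in KO and 50.2 to 102.1 in Het metastases, so the KO values lay within the Het range. The log2 differences of the 3 probe sets were 0.15, -0.17 and 0.0016 and were not tested. Without detection calls, which were not used here, it is not known whether such signals exceed background.

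**Figure D1:**
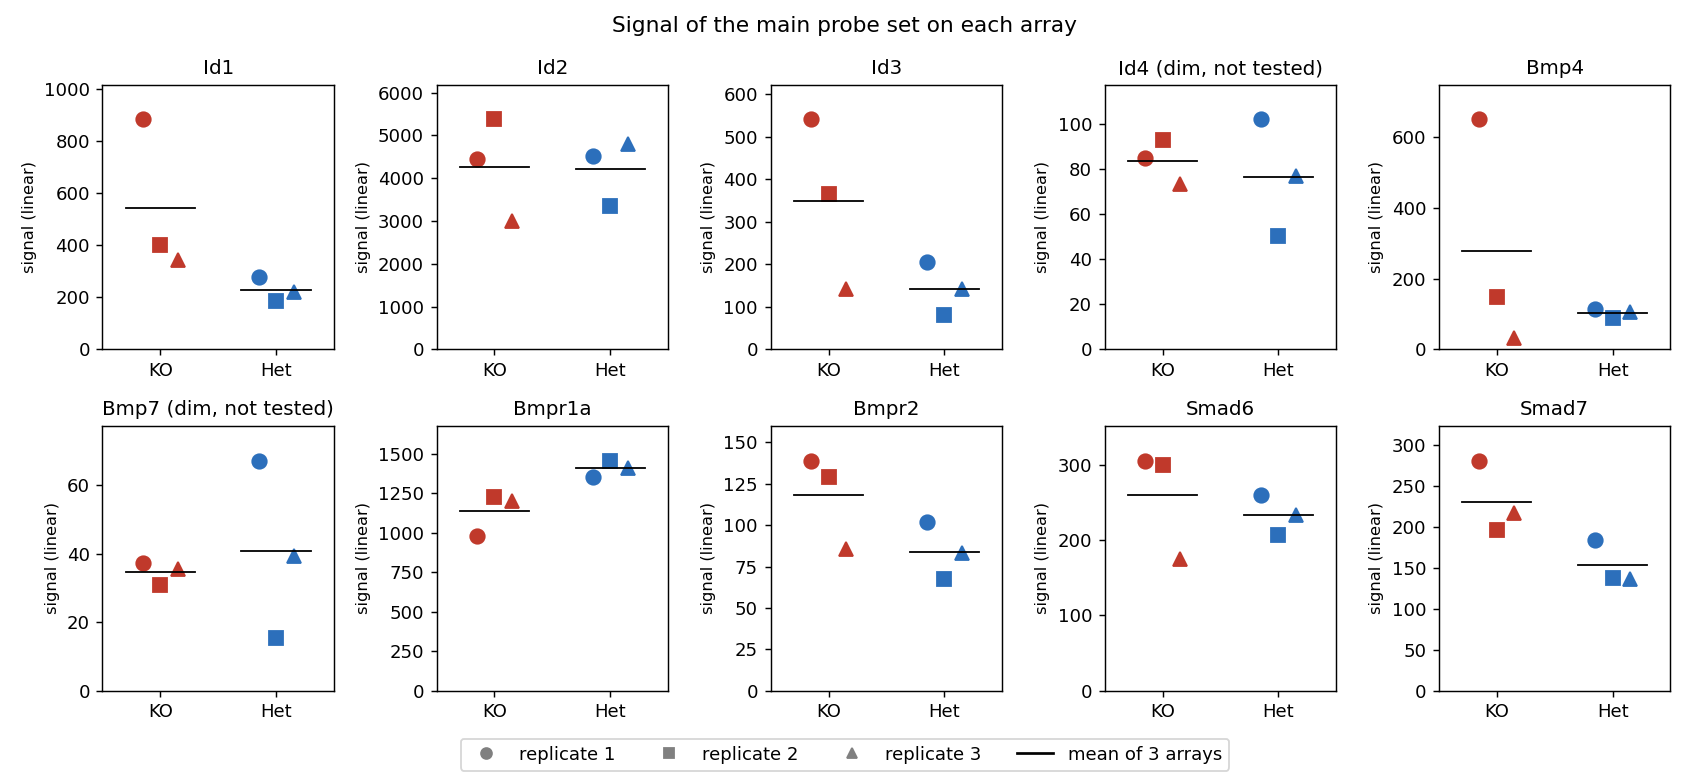
Linear signal (y axis, from 0, a scale for each gene) of the main probe set on the 6 arrays, with KO in red, Het in blue, a marker shape for each replicate and a line at the mean of 3 arrays. The groups do not overlap for Id1, Bmpr1a and Smad7, and Bmp4 runs from 32.9 to 650.2 within KO.

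Among the ligands, Bmp4, which is made chiefly by mesenchymal cells and patterns the lung and the mammary bud, varied more within the KO group than between the groups. Its signal was 650.2, 148.9 and 32.9 in KO replicates 1, 2 and 3, a 19.8-fold span, and 115.2, 90.2 and 106.1 in Het replicates 1, 2 and 3, a 1.28-fold span. KO metastases held both the highest and the lowest value, with all Het arrays between them. The log2 difference was 0.55 (SE 1.36; limma adjusted p = 0.9999), and without KO replicate 1 it was -0.41. The arrays ranked for Bmp4 exactly as for the mean of the alveolar markers: KO replicate 1, KO replicate 2, Het replicates 1, 3 and 2, then KO replicate 3. Smad6 had this order too, so 2 of the 8 genes, against 1.1% of the 13576 probe sets tested; the order was noticed after the values were seen, and the part of lung tissue in it was not tested.

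Bmp7, a ligand of the same family made by many epithelia, lay under the filter on all 3 of its probe sets. The main probe set read 37.3, 30.7 and 35.6 in KO and 67.1, 15.5 and 39.4 in Het replicates 1, 2 and 3. The KO values lay inside the Het range, which spanned 4.33-fold. The other probe sets had means of 21.7 and 2.7. The log2 differences of the 3 were -0.06, 0.18 and 0.12, none tested.

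The log2 differences of the main probe sets of the receptor genes had opposite signs, and neither gene passed the test. Bmpr1a, the type I receptor ALK3, had main probe set signals of 982.5, 1227.6 and 1200.9 in KO replicates 1, 2 and 3 and of 1356.2, 1457.5 and 1410.9 in Het replicates 1, 2 and 3. Every KO array lay below every Het array, by a small margin: the log2 difference was -0.31 (SE 0.24; limma adjusted p = 0.9999), with means of 1137 ± 134 for KO and 1408 ± 50.7 for Het (SD over 3 arrays each). The other 4 probe sets of Bmpr1a overlapped between the groups. Their log2 differences were -0.21, -0.21, -0.028 and 0.033, so 1 of 5 probe sets separated the groups. KO replicate 1 gave the lowest value on 4 of the 5.

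Bmpr2, the type II receptor, had signals of 139.0, 129.2 and 85.7 in KO replicates 1, 2 and 3 and of 101.8, 67.7 and 82.9 in Het replicates 1, 2 and 3. KO replicate 3 fell among the Het arrays. The Bmpr2 mean over the 6 arrays, 101.0, was close to the lowest mean that passed the filter, 82.6. No detection calls were used. The log2 difference was 0.41 (SE 0.39; limma adjusted p = 0.9999).

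Of the inhibitory Smad genes, Smad7 separated every KO array from every Het array and Smad6 did not. Their log2 differences were not tested against each other. Smad7, which blocks both BMP and TGF-beta receptors, had signals of 280.9, 196.5 and 216.7 in KO replicates 1, 2 and 3 and of 184.5, 137.2 and 136.6 in Het replicates 1, 2 and 3. All KO arrays lay above all Het arrays, with KO replicate 2 closest to them. The mean was 231 ± 44.1 for KO against 153 ± 27.5 for Het (SD over 3 arrays each), and the log2 difference was 0.55 (SE 0.30; limma adjusted p = 0.9999). Leaving out 1 array at a time kept it between 0.41 and 0.68. Smad6, which acts mainly on the BMP branch, had signals of 305.1, 299.9 and 175.0 in KO replicates 1, 2 and 3 and of 259.4, 206.1 and 233.5 in Het replicates 1, 2 and 3. KO replicate 3 was the lowest of all and KO replicates 1 and 2 the highest, and the log2 difference was 0.11 (SE 0.38; limma adjusted p = 0.9999). It was -0.014 without KO replicate 1. Smad6 is the gene whose window above holds the palindrome at its start.

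**Figure D2:**
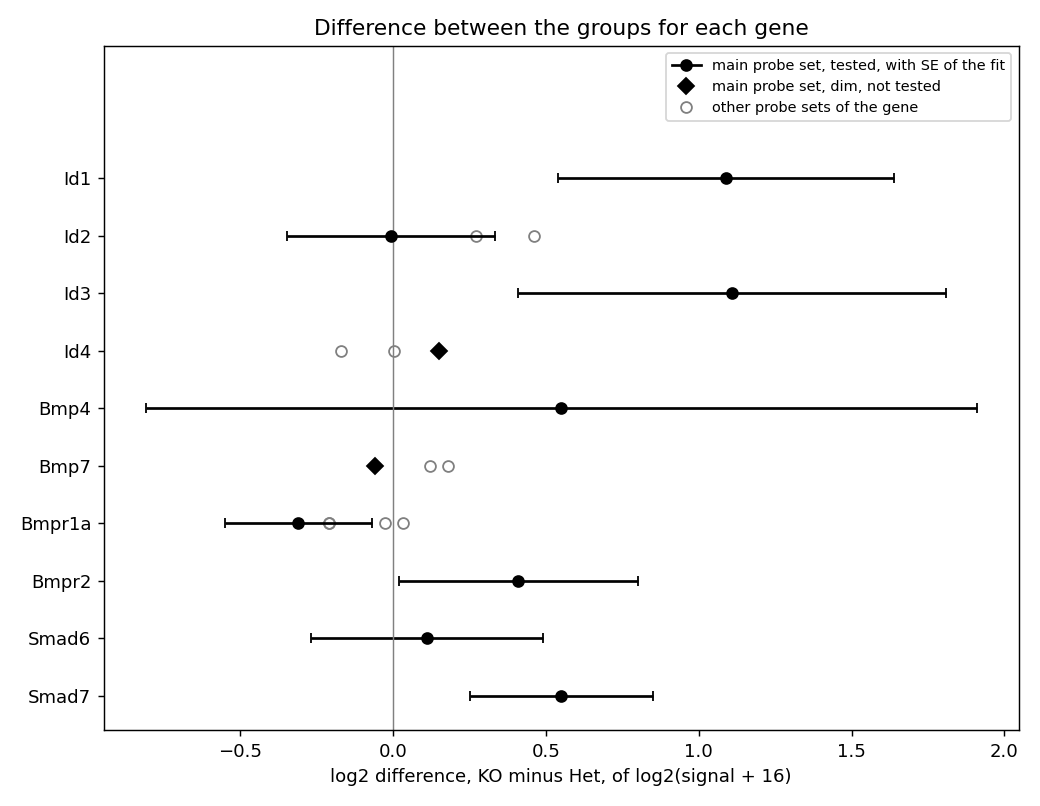
Log2 difference (x axis, KO minus Het of log2(signal + 16)) for each of the 10 genes (y axis), with bars of 1 SE of the limma fit for tested main probe sets, diamonds for dim ones and open circles for the other probe sets. Id1 at 1.09 and Id3 at 1.11 lie farthest to the right, and Bmpr1a at -0.31 is the lowest main probe set.

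None of the 8 genes passed the test. With limma, the 3 KO samples were compared with the Het arrays averaged into 1 sample, and the adjusted p fell under 0.05 for 0 of 13576 probe sets, 0% (lowest 0.9999). The unadjusted p was under 0.05 for 305, or 2.25%, and for 0 of the 8 genes. Counting every array separately, limma called 0 probe sets (lowest adjusted p 0.0538), with an unadjusted p under 0.05 for 1395, or 10.3%. Id1 and Smad7 were 2 of these 1395, with limma adjusted p = 0.394 and 0.427. With the Het arrays averaged into 1 sample, the spread of a probe set within a group came from the 3 KO arrays alone. The spread among the Het arrays then had no part in its SE or p-value. With every array counted separately, the spread within both groups was used. Whether the arrays represent different mice remains unknown.

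KO and Het arrays were fully separated for 3 of the 8 genes: Id1 and Smad7, higher in KO, and Bmpr1a, lower in KO. Over all probe sets tested, 16.8% did not overlap, 7.87% higher and 8.89% lower in KO. Without KO replicate 3 the count was 7 of 8 (all but Id2), against 36.7% of probe sets, and without Het replicate 1 it was 5, against 26.8%. The median log2 difference of the 8 genes was 0.48, beside -0.02 over all probe sets tested, and 6 of the 8 were above 0, beside 47.7%.

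On the main probe sets of the 8 genes, the KO metastases differed more among themselves than the Het metastases did. This did not hold for every other probe set of these genes. The Het arrays share a title number and may come from 1 mouse, whereas each KO array has a number of its own. The Het spread may thus lie within a mouse and the KO spread between mice. The SD of log2(signal + 16) was larger in KO than in Het arrays for 8 of the 8 main probe sets, but for 12 of all 20 probe sets of the 10 genes, beside 59.6% of probe sets tested. The Het SD was the larger one on the second Id2 probe set, at 0.77 against 0.31. The KO SDs were 1.89 for Bmp4, 0.93 for Id3 and 0.71 for Id1, and the Het SDs were 0.15, 0.61 and 0.28. KO replicate 1 gave the highest signal for 6 of the 8 genes, beside 21.1% of probe sets. The exceptions were Id2, highest in KO replicate 2, and Bmpr1a, for which KO replicate 1 was the lowest array.

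**Figure D3:**
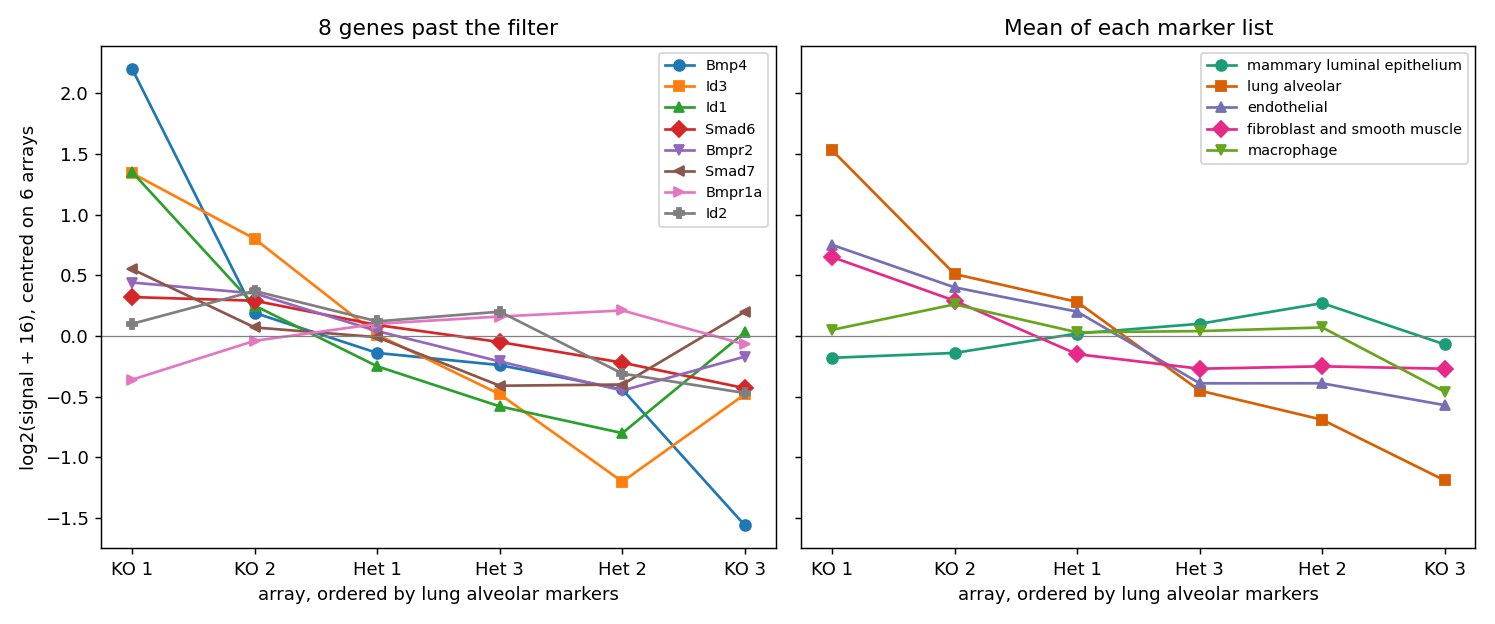
Values of log2(signal + 16) centred on the mean of the 6 arrays (y axis) for the 8 genes that passed the filter (left) and the mean of each marker list (right), with arrays (x axis) ordered by the alveolar markers. Bmp4 runs from 2.20 to -1.56 and the alveolar markers from 1.53 to -1.19 in the same order. Id1, Id3, Bmpr2 and Smad7 turn up again in KO replicate 3, to 0.03, -0.48, -0.17 and 0.20.

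Genes were ranked by how closely they followed Id1, as the root mean square difference of centred log2(signal + 16) over the 6 arrays. Of 7963 genes compared, the nearest were Cyba, a subunit of the NADPH oxidase, at 0.133, Col15a1, a basement membrane collagen gene, at 0.17, Dcn, which encodes the matrix proteoglycan decorin, at 0.183, the growth factor gene Tgfb1 at 0.185 and Atp8a1, which encodes a phospholipid flippase, at 0.199. The median over all genes compared was 0.741. Cyba read 2198.3, 1131.2 and 946.2 in KO and 705.9, 613.8 and 692.5 in Het replicates 1, 2 and 3. Its arrays did not overlap, which follows largely from its being picked for closeness to Id1. Within the gene set, Id3 (0.363) and Smad7 (0.398) were nearest to Id1 and Bmpr1a (0.885) farthest.

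The rest of the pathway was read from a list of 60 other BMP and TGF-beta genes, of which 50 had a probe set and 30 passed the filter. None of the 30 passed the limma test, with 0 called also when each array was a sample. The arrays did not overlap for 5 of the 30, 2 higher (Smad5 and Fstl1) and 3 lower in KO (Smad4, Acvr2a and Tgfb3), beside 16.8% of all probe sets. The median log2 difference of the 30 was 0.02.

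Of the other ligands, 8 were on the array and 1 passed the filter, Bmp6, at -0.06 (SE 0.40). Among 5 receptors tested, Acvr2a, a type II receptor shared with activins, was at -0.35 (SE 0.24), with signals of 389.0, 332.6 and 369.5 in KO and 401.8, 487.6 and 517.9 in Het replicates 1, 2 and 3. The 3 Smad transducers tested did not share a direction. Smad5, a BMP receptor Smad, read 162.5, 178.1 and 228.3 in KO and 74.0, 148.6 and 154.6 in Het replicates 1, 2 and 3 (log2 difference 0.58, SE 0.31). Without Het replicate 1, its lowest array, Smad5 was at 0.28. Smad4, the partner of all receptor Smads, read 1609.4, 1410.3 and 1651.1 in KO and 1863.0, 2117.6 and 1965.2 in Het replicates 1, 2 and 3 (log2 difference -0.35, SE 0.22).

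Among 4 antagonists tested, the pseudoreceptor gene Bambi, itself a BMP target, had the largest difference at 0.81 (SE 0.67), and was at 296.2 in KO replicate 1 against 56.4 to 124.5 elsewhere. Fst came next at 0.68 (SE 0.36), with overlapping arrays. Without KO replicate 1 Bambi was at 0.34, below Fstl1 at 0.49, and the value of Fst was not read off. The secreted glycoprotein gene Fstl1 was at 0.53 (SE 0.28), with signals of 799.4, 882.6 and 620.1 in KO and 551.9, 510.3 and 506.6 in Het replicates 1, 2 and 3. Its arrays did not overlap. Nog and Grem1, which encode secreted traps for BMP ligands, did not pass the filter.

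Of 4 corepressors and turnover factors, Ski had the largest difference, 0.11 (SE 0.37). All 4 other BMP target genes tested were above 0, none past the test, with Hhex at 0.95 (SE 1.06) and signals of 352.4, 138.3 and 34.9 in KO replicates 1, 2 and 3. The 3 KO arrays ranked as they did for Id1, Id3, Bmp4, Bmpr2 and Smad6 and for the alveolar and endothelial markers. Hhex is a homeobox gene of endothelium and foregut, and without KO replicate 1 its log2 difference was 0.26. The 3 E protein genes, whose products the Id proteins bind, overlapped between the groups, with Tcf3 at -0.23 (SE 0.28).

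In the TGF-beta arm the 3 ligand genes did not share a direction. Tgfb3 read 847.1, 1348.0 and 658.5 in KO and 1724.9, 1906.3 and 2284.3 in Het replicates 1, 2 and 3, with no overlap (log2 difference -1.09, SE 0.42; limma adjusted p = 0.9999). Tgfb2 read 274.9, 736.8 and 160.0 in KO and 644.9, 922.2 and 747.8 in Het replicates 1, 2 and 3, with KO replicate 2 above 1 Het array (log2 difference -1.21, SE 0.78). Tgfb2 was at -0.74 when KO replicate 3 was left out, against -0.86 for Tgfb3, and at -1.78 when KO replicate 2 was left out. Tgfb1, among the genes nearest to Id1, was at 0.89 (SE 0.57), with overlapping arrays.

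**Figure D4:**
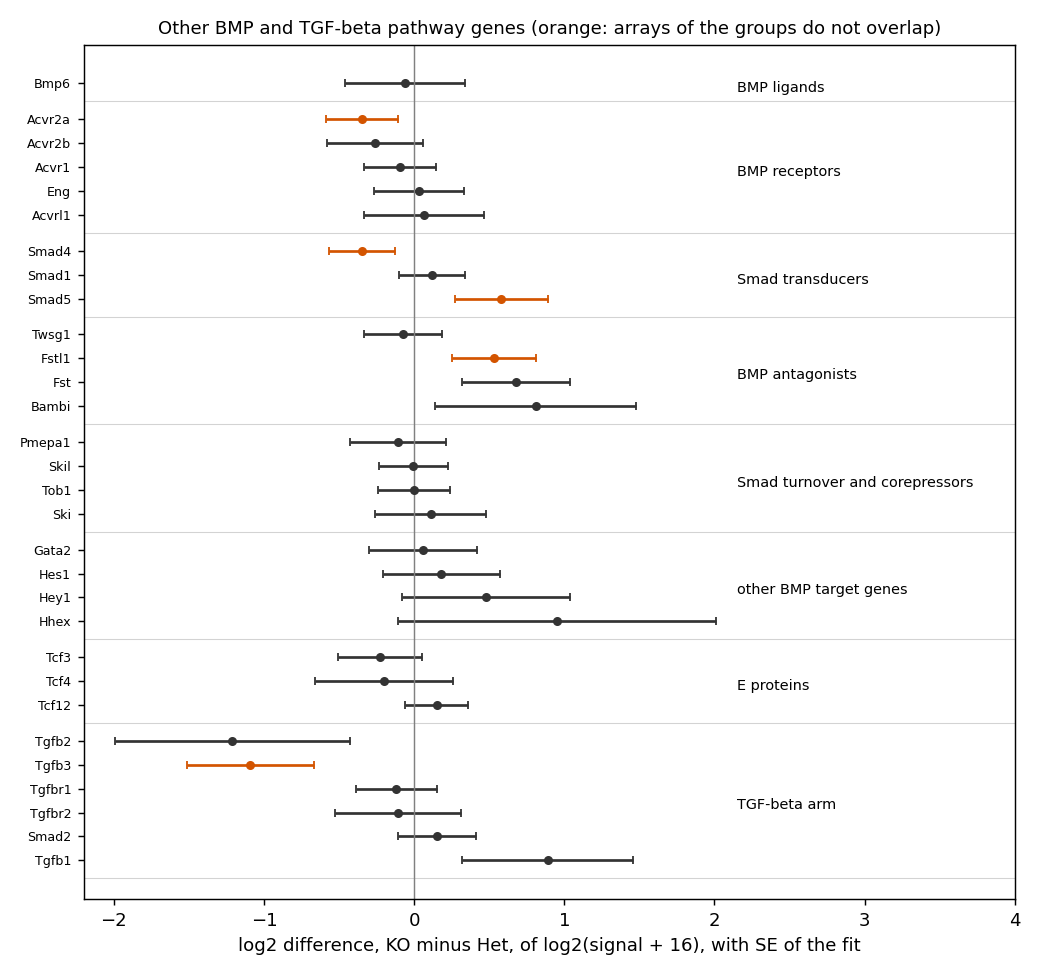
Log2 difference (x axis, KO minus Het of log2(signal + 16), bars of 1 SE of the limma fit) for the 30 other pathway genes that passed the filter (y axis, by list), with orange marking the 5 genes whose arrays do not overlap. Tgfb2 at -1.21 and Tgfb3 at -1.09 lie lowest with all 6 arrays in the fit, and Hhex at 0.95 and Tgfb1 at 0.89 the highest.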

How the data were processed

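The values were linear signal intensities deposited by the authors, 1 per probe set and array. Per the submitters' processing notes the tools were MAS5 and Affymetrix Expression Console; their versions are unknown here. Each array had a trimmed mean of 500.2, so the authors' deposited intensities were scaled to a common level. Array medians ran from 137.6 to 164.8; the number of arrays limits the precision. Of 22690 probe sets, 64 were controls, 20380 had 1 gene symbol, 691 several and 1555 none; 20351 were matched to RefSeq by Entrez ID.

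Signals were transformed to log2(signal + 16), which understates changes of dim genes. After removing control probe sets and the dimmest 40% by mean signal, 13576 stayed. Limma 3.58.1 in R 4.3.3 (lmFit, eBayes with trend, Benjamini-Hochberg, threshold 0.05) compared 3 KO samples with the 3 Het arrays averaged into 1, which is assumed to vary like a KO sample. The procedure was tested on simulated data. Pathway genes were named when their arrays did not overlap or when they had the largest difference of their list. The 5 genes nearest to Id1 were also named. Tgfb1, Fst, Nog and Grem1 were named with values or status outside these rules, after the values were seen. The members and lists were chosen with earlier results of these data known. Alternatives covered the unit of replication, pseudocount, normalization, filter, variance trend, probe sets and each array.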

Additional observations from a re-analysis of the deposited data

How the results depend on the processing

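Under the 14 other fits, 0 probe sets passed the threshold, and so none of the genes tested in them: 8 of the 10 genes and 30 pathway genes in 12 of these fits, 10 and 50 with no filter on dim probe sets, and 3 and 19 when the dimmest 60% were dropped. The differences of Id1, Id3, Bmpr1a, Bmpr2 and Smad7 kept their direction under every alternative run. Some alternatives could not move them: the unit of replication, the filter and the variance trend change only the SE or the probe sets tested. Of these genes, the mean of all probe sets could move only Bmpr1a, as the others have 1 probe set each. Leaving out 1 array at a time gave 0.69 to 1.35 for Id1, 0.71 to 1.62 for Id3 and -0.37 to -0.21 for Bmpr1a. For Bmpr2 it gave 0.29 to 0.60, and for Smad7 0.41 to 0.68. For genes that turned direction the same ranges were -0.19 to 0.23 for Id2, -0.074 to 0.34 for Id4, -0.41 to 1.47 for Bmp4, -0.43 to 0.27 for Bmp7, -0.014 to 0.36 for Smad6, -0.32 to 0.28 for Bmp6, -0.1 to 0.32 for Ski and -0.37 to 0.0095 for Tcf3. The count of genes whose arrays do not overlap, 3, ran from 3 to 7 when 1 array was left out, with fewer arrays to overlap. It was 2 with the mean of all probe sets of a gene, since Bmpr1a then overlapped.

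Other directions turned, and the cause was not tested. Leaving out KO replicate 1 turned Bmp4, Smad6 and Ski, leaving out KO replicate 2 turned Smad6 (-0.0023), and leaving out KO replicate 3 turned Id2 (0.23) and Bmp6 (0.15). Without Het replicate 1, Id2 was at 0.051, Bmp7 at 0.27 and Bmp6 at 0.28; without Het replicate 2, Id4 and Tcf3 turned; without Het replicate 3, Id2 was at 0.093. With the mean of all probe sets of a gene, Id2 was at 0.24, Id4 at -0.0075 and Bmp7 at 0.082. The alternatives for pathway genes were added after seeing the data. No paired analysis was possible because the labels give the groups no shared replicate numbers.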

Other observations

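Most BMP ligand genes were dim in these metastases, 7 of the 8 others on the array lying under the filter, and no test was run on them. Bmp2 and Bmp5 had the array order of Bmp4 and of the alveolar markers. Bmp2 read 193.7, 46.9 and 13.3 in KO replicates 1, 2 and 3, with all Het arrays between KO replicates 2 and 3. Bmp5 read 136.2, 98.4 and 18.5 in KO and 57.0, 27.1 and 38.7 in Het replicates 1, 2 and 3. Both were singled out after their values were seen, and no detection calls were used.

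Sostdc1, a secreted antagonist of BMP and Wnt signalling made by epithelia, did not follow this order. It read 12, 175.5 and 62.0 in KO and 116.5, 24.9 and 55.4 in Het replicates 1, 2 and 3, with the groups overlapping on an untested probe set. Singled out in the same way, it was lowest in KO replicate 1, where Bmp4, Bmp2 and Bmp5 were highest.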
